A study of Mus musculus with 49 samples.

Results

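Claudins and the proteins that sit beside them in tight junctions were followed through 2 mouse tissues under inflammation and antibody treatment. The 10 genes were taken from a given list and matched by Entrez gene identifier: Cldn1, Cldn2, Cldn3, Cldn4, Cldn7, Cldn8, Cldn15, Cldn23, Ocln and Marveld3, out of 24475 genes in the tables of skin and colon. All 10 were found in both tables. In skin 8 of the 10 passed the filter on low counts, and in colon 10 of 10.

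Bulk messenger RNA was sequenced from skin and from colon of mice labelled as a model of DITRA (deficiency of the IL-36 receptor antagonist, an inflammatory disease driven by the interleukin-36 receptor), on a background of 75% C57BL/6NTac and 25% 129S6/SvEvTac. Imiquimod (IMQ), an immune activator that provokes a psoriasis-like reaction, was used on skin, and dextran sulphate sodium (DSS), which injures the colonic epithelium, was used for colon. Animals with inflammation received PBS, an antibody against the human IL-36 receptor (anti-IL-36R) or an antibody against the mouse IL-12p40 subunit shared by interleukins 12 and 23 (anti-IL-12p40). Controls were labelled as given water and PBS. Skin held 3 water control libraries, 6 of IMQ with PBS, 7 of IMQ with anti-IL-36R and 7 of IMQ with anti-IL-12p40. Colon held 5 water control libraries, 6 of DSS with PBS, 8 of DSS with anti-IL-36R and 7 of DSS with anti-IL-12p40. Every group, the water controls included, carried the DITRA model, so no group here was wild type. The alleles of the model, the age of the mice, and whether each library came from its own animal are not given in the sources used here, so p-values measure only the spread between these libraries.

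Tight junctions seal the space between neighbouring epithelial cells. Claudins span the membrane and set which ions and molecules pass: sealing members such as claudin-1 close the gap, while claudin-2 and claudin-15 form pores for cations and water. Occludin and MARVELD3 belong to a separate family of membrane proteins of the junction, and scaffold proteins such as ZO-1 tie both families to the actin cytoskeleton.

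Library totals ran from 14723200 to 19678100 expected counts in skin and from 15081700 to 18663400 in colon. The tissue labels were checked against defining genes. Krt5 and Krt14, keratins of basal keratinocytes, averaged 5294 and 7202 CPM (counts scaled to library size) in water control skin, against 0.337 and 1.59 CPM in water control colon. Vil1, the villin of the colonic brush border, averaged 557 CPM in water control colon and 0.0376 CPM in water control skin.

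Several libraries stood apart from their group. DSS with PBS replicate 6 held 1499 CPM of Krt5, against 0.191 to 11.1 CPM in the other 5 libraries of that group, and its summed level of 10 simple epithelium genes was 2981 CPM against 5541 to 11988 CPM. It was the lowest of its group for 8 of the 10 junction genes and the highest for Cldn1 and Cldn4. Colon water control replicate 4 held 65274 CPM of 7 goblet cell genes, against 13705 to 19736 CPM in the other 4. IMQ with PBS replicate 1 held 42073 CPM of 6 suprabasal keratinocyte genes, against 8575 to 19533 CPM in the other 5. Skin water control replicate 3 held 5620 CPM of 9 sebaceous gland genes, against 3158 and 3258 CPM in the other controls. It also held 3970 CPM of smooth and skeletal muscle genes, against 1324 and 1409 CPM. Its hair follicle genes summed to 65.4 CPM, against 243 and 422 CPM. Its leukocyte genes summed to 810 CPM, against 1894 and 2884 CPM. Where a call named here changes without one of these libraries, the value without it is given beside the result.

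The claudins stood at different levels in the 2 tissues. In water controls, 8 of the 10 genes were higher in colon than in skin and Cldn1 and Cldn4 were lower, at an adjusted p under 0.05 in edgeR's quasi-likelihood test. Over all 16818 genes in that fit, 33.3% were higher in colon and 32.7% were lower, so most genes differed between the tissues. Expressed per kilobase of exon, so that genes can be set beside each other, the most abundant of the 10 in skin was Cldn1, a sealing claudin of the epidermis, at 41.1 ± 3.20 CPM per kb (SD, n = 3). Cldn4, another sealing claudin, followed at 32.7 ± 9.70 CPM per kb and overlapped Cldn1. Cldn23 (6.17 ± 1.75 CPM per kb) and Ocln (4.89 ± 1.14 CPM per kb) came next, below both and overlapping each other. Marveld3, Cldn8, Cldn3 and Cldn15 lay between 0.524 and 1.62 CPM per kb in water control skin. Of these, Marveld3 stayed below every Ocln value, and Cldn8, Cldn3 and Cldn15 each overlapped the gene ranked above it.

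In colon the order was led by Cldn7, a claudin of the lateral membrane, at 231 ± 20.4 CPM per kb (SD, n = 5). Cldn3, a sealing claudin, followed at 167 ± 32.8 CPM per kb, with no overlap with Cldn7. Cldn8, which restricts sodium leak in the distal colon, stood at 73.0 ± 29.5 CPM per kb, below every Cldn3 value. Cldn2 (54.2 ± 4.08 CPM per kb), Cldn15 (31.2 ± 31.9 CPM per kb) and Ocln (30.3 ± 5.87 CPM per kb) came next, each overlapping the gene above. Marveld3 (19.7 ± 2.83 CPM per kb) lay below every Ocln value, and Cldn4 (18.2 ± 6.48 CPM per kb) and Cldn23 (13.4 ± 4.09 CPM per kb) each overlapped the gene above. Cldn1 was lowest at 0.810 ± 0.374 CPM per kb, below every other value.

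The widest gaps between the tissues were in Cldn7 and Cldn2. Cldn7 had 26 counts over all 23 skin libraries, with 9 libraries at 0 and none above 4 counts. Cldn2 had 21 counts over the same libraries, with 10 at 0 and none above 3. Neither passed the filter in skin, and neither is tested within skin. Both entered the fit of both tissues, and the count of genes higher in colon, only through their colon libraries. In the opposite direction, the log2 difference of colon minus skin in the controls was -5.78 ± 0.55 (SE, adjusted p = 2.01e-12) for Cldn1. For Cldn4 it was -0.98 ± 0.33 (adjusted p = 0.00889), a call that was lost without skin water control replicate 2 (adjusted p = 0.0993). Cldn23, a claudin of differentiated surface epithelium, differed by 0.99 ± 0.34 (adjusted p = 0.0111), and that call was lost without skin water control replicate 1 (adjusted p = 0.0876). The tissues were deposited in separate tables, so a difference in handling between them cannot be told apart from the tissue.

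**Figure D1:**
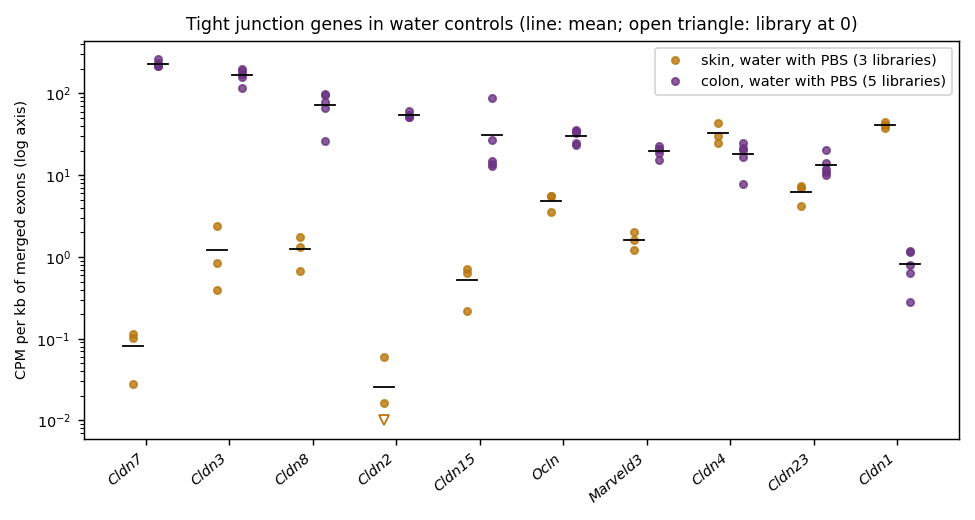
Levels of the 10 genes in CPM per kilobase of exon on a log axis, for the 3 skin and 5 colon water control libraries, ordered by their level in colon. Points are libraries, lines are means and open triangles are libraries at 0. Cldn7 and Cldn3 lead in colon, Cldn1 and Cldn4 lead in skin, and Cldn2 and Cldn7 lie at the bottom in skin.

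Cldn3 and Cldn4 lie near each other on chromosome 5, 39280 bases apart, at 134986214 to 134987476 and 134945123 to 134946934 of mouse build GRCm38.p6, and each has a single exon. In 26 of 26 colon libraries and in 13 of 23 skin libraries both had expected counts that were not whole, while their sum was whole to within 0.001. The authors' counting therefore divided some reads between the pair, and how many is not given by the table. Ocln also had expected counts that were not whole, in 22 of 26 colon libraries and 9 of 23 skin libraries. The cause of this in Ocln was not tested. Cldn15 lies on the same chromosome at 136967869 to 136975845. Cldn1 lies on chromosome 16 at 26356645 to 26371839, and Cldn8, with a single exon, on the same chromosome at 88560826 to 88563183. Cldn23 (35824709 to 35826559) and Marveld3 (109947909 to 109962205) lie on chromosome 8, Cldn7 on chromosome 11 at 69964779 to 69967886, Ocln on chromosome 13 at 100496504 to 100552718 and Cldn2 on chromosome X at 139800808 to 139811386.

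The 250 bases before the start site are shown for 4 genes from the RefSeq annotation of GRCm38.p6. They are Cldn1 and Cldn3, which were lower in inflamed skin, Cldn4, the neighbour of Cldn3, which was not called there, and Ocln, which was lower in inflamed colon. Each runs 5′ to 3′ on the gene's own strand and ends at the base before the start site, which for Ocln is the more upstream of 2 annotated. Capitals mark matches to any of 6 motifs searched on both strands: AP-1 (TGANTCA), the Snail E-box (CAGGTG), the Sp and Klf GC box (GGGCGGG), the grainyhead motif (AACNNGTT), the Cdx motif (TTTATG) and the STAT motif (TTCNNNGAA).
Cldn1, chr16:26371840-26372089, minus strand: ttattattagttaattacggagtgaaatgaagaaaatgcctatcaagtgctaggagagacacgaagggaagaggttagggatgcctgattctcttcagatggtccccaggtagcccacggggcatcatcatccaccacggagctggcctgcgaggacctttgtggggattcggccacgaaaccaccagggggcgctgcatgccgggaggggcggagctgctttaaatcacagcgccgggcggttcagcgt
Cldn3, chr5:134985964-134986213, plus strand: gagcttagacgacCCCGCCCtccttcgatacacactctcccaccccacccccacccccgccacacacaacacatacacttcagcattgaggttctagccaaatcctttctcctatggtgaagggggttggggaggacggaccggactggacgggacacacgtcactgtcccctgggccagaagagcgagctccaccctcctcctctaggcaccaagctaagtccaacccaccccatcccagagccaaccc
Cldn4, chr5:134946935-134947184, minus strand: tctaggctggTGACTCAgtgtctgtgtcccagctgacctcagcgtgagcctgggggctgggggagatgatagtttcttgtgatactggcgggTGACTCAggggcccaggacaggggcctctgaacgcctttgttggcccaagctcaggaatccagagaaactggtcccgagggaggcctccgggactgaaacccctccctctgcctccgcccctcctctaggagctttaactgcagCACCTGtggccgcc
Ocln, chr13:100552719-100552968, minus strand: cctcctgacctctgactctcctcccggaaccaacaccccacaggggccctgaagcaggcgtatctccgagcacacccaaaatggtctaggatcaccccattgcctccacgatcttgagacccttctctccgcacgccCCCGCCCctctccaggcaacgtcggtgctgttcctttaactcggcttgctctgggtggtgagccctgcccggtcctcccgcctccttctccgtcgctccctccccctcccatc

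The Cldn1 stretch held 0 matches. Cldn3 held 1 GC box at position -237 and Ocln 1 at -113, both on the opposite strand and so spelled CCCGCCC. RefSeq holds a second start site for Ocln, whose 250 bases at chr13:100552499-100552748 are not printed and held Snail E-boxes at -213 and -68 and a GC box at -43. Cldn4 held 2 AP-1 matches, at -240 and -158, and a Snail E-box at -14 spelled CACCTG. Of 32851 promoter windows in RefSeq, 6.75% held the AP-1 letters, 17.2% the Snail E-box, 23.4% the GC box, 3.64% the grainyhead letters, 10.8% the Cdx letters and 7.02% the STAT letters. RefSeq promoter entries were found for 7 of the 10 genes. A match is a description of the letters and not a bound site.

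In skin, IMQ with PBS was compared with the water controls to show what inflammation changed. Of the 8 genes tested, Cldn1, Cldn3, Cldn8 and Cldn23 fell and Cldn15 rose. Over all 15345 genes tested in skin, 17.5% fell and 15.5% rose. The median log2 change of the 8 was -0.55, against -0.03 over all genes. When skin water control replicate 3 was left out, 3 of the 8 fell and 0 rose, where 10.1% of all genes fell and 8.6% rose. In bulk tissue, fewer cells of a type and less RNA per cell cannot be told apart.

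Cldn23 stood at 7.68, 13.5 and 13.01 CPM in the water controls. In IMQ with PBS it ran from 1.40 CPM through a median of 3.16 to 5.90 CPM. No IMQ library reached the lowest control, and replicate 1 was the highest of the 6. Cldn23 fell by 1.83 ± 0.31 on the log2 scale (SE, adjusted p = 0.00038), and the call was kept in every alternative run. It fell by 1.47 with only replicates 1 to 3 of IMQ with PBS and by 2.27 with only replicates 4 to 6. These are the sets whose label numbers run with the water controls and with the anti-IL-36R libraries, respectively.

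Cldn3 was a rare transcript in skin. It stood at 0.490, 1.06 and 2.99 CPM in the controls, or 78 counts in all. The 6 libraries of IMQ with PBS ran from 0 through a median of 0.0552 to 0.140 CPM, or 6 counts in all, with 2 libraries at 0. The groups did not overlap, and Cldn3 fell by 4.47 ± 0.83 on the log2 scale (adjusted p = 0.000747). Without skin water control replicate 3 it fell by 3.49 (adjusted p = 0.014). With counts this low the size of the change is imprecise.

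Cldn8 stood at 3.11, 1.59 and 4.11 CPM in the controls and from 0.350 through 1.07 to 1.40 CPM in IMQ with PBS. The groups did not overlap. It fell by 1.64 ± 0.44 on the log2 scale (adjusted p = 0.00749), and by 1.32 with no call without skin water control replicate 3 (adjusted p = 0.0669).

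Cldn1, the most abundant claudin of the controls, stood at 183, 214 and 199 CPM. In IMQ with PBS it ran from 103 through 119 to 187 CPM. Replicate 1 alone overlapped the controls, since the other 5 libraries were at or below 129 CPM. Cldn1 fell by 0.65 ± 0.16 on the log2 scale (adjusted p = 0.0054). It fell by 0.73 with replicates 4 to 6 of IMQ with PBS (adjusted p = 0.00562), and the value with replicates 1 to 3 was -0.54 (adjusted p = 0.0514).

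Cldn15, the cation pore, moved the other way. The controls stood at 1.53, 0.463 and 1.35 CPM and IMQ with PBS ran from 1.09 through 2.52 to 4.62 CPM, so the groups overlapped. Cldn15 rose by 1.22 ± 0.43 on the log2 scale (adjusted p = 0.0348), and the call was lost in 8 of 16 alternatives. These included leaving out skin water control replicate 2 (0.90, adjusted p = 0.136) or replicate 3 (1.37, adjusted p = 0.07). It was 0.90 (adjusted p = 0.159) with replicates 1 to 3 of IMQ with PBS and 1.51 (adjusted p = 0.0234) with replicates 4 to 6.

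The remaining genes tested in skin were not called. Cldn4 stood at 45.0, 79.1 and 54.2 CPM in the controls and from 47.0 through 54.5 to 83.6 CPM in IMQ with PBS, a log2 difference of 0.02 ± 0.18 (adjusted p = 0.952). For Ocln the difference was -0.07 ± 0.19 (adjusted p = 0.779). For Marveld3 it was -0.46 ± 0.20 (adjusted p = 0.0833), or -0.63 (adjusted p = 0.0438) without skin water control replicate 1. All 3 overlapped between the groups.

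Markers of skin compartments also changed, some up and some down. The basal keratinocyte genes summed to 11302 to 17063 CPM in the water controls and 22139 to 31857 CPM in IMQ with PBS. Most of that sum was Krt14, with means of 7202 and 17780 CPM, and Krt5, with 5294 and 7172 CPM. Krt15 of the same list went the other way, with means of 545 and 86.4 CPM. Trp63 averaged 248 and 290 CPM, and Col17a1 742 and 808 CPM. The fibroblast genes summed to 13590 to 23197 CPM in the controls and 4202 to 10393 CPM in IMQ with PBS. The summed level of 9 sebaceous gland genes was 3158 to 5620 CPM in the water controls, 554 to 1725 CPM in IMQ with PBS, 1488 to 4386 CPM with anti-IL-36R and 1797 to 4284 CPM with anti-IL-12p40. Of the 8 sebaceous genes tested, 8 fell in inflamed skin, 7 rose with each antibody, and none of the 9 was at 0 throughout a skin group. The 6 suprabasal keratinocyte genes summed to 27665 to 55383 CPM in the controls, 8575 to 42073 CPM in IMQ with PBS, 10321 to 36589 CPM with anti-IL-36R and 23786 to 35874 CPM with anti-IL-12p40. Of these 6, 3 fell in inflamed skin, or 5 without IMQ with PBS replicate 1. With anti-IL-12p40 3 of the 6 rose, and 0 were called by edgeR with anti-IL-36R, or 5 and 3 without that library. The 10 leukocyte genes summed to 810 to 2884 CPM in the controls, 8609 to 16896 CPM in IMQ with PBS, 3943 to 13264 CPM with anti-IL-36R and 1491 to 5836 CPM with anti-IL-12p40, the last below every IMQ with PBS library. Of the 9 tested, 5 rose and 1 fell in inflamed skin, 1 rose and 2 fell with anti-IL-12p40, and 0 were called by edgeR with anti-IL-36R. The part of these compartments in the junction gene changes was not tested.

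Each antibody was compared with IMQ and PBS. Both comparisons use the same 6 PBS libraries, so their values are given side by side. Cldn1, Cldn3 and Cldn23 rose with either antibody, and 0 of the 8 fell. With anti-IL-36R, 3.29% of all genes rose and 0.919% fell. With anti-IL-12p40, 5.32% rose and 3.49% fell. The median log2 difference of the 8 was 0.56 with anti-IL-36R, against 0.00 over all genes, and 0.45 with anti-IL-12p40, against 0.01.

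Cldn1 ran from 155 through 182 to 237 CPM with anti-IL-36R and from 158 through 186 to 229 CPM with anti-IL-12p40. Both groups centred near the water controls and overlapped IMQ with PBS only through its replicate 1. Cldn1 rose by 0.60 ± 0.13 on the log2 scale with anti-IL-36R (adjusted p = 0.0132) and by 0.58 ± 0.13 with anti-IL-12p40 (adjusted p = 0.01). Against replicates 1 to 3 of IMQ with PBS the values were 0.50 (adjusted p = 0.135) and 0.47 (adjusted p = 0.12). Against replicates 4 to 6 they were 0.69 (adjusted p = 0.0372) and 0.66 (adjusted p = 0.027).

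Cldn3 ran from 0 through 0.853 to 1.36 CPM with anti-IL-36R, where replicate 3 was at 0. With anti-IL-12p40 it ran from 0.212 through 0.654 to 1.90 CPM, above every library of IMQ with PBS. Cldn3 rose by 3.45 ± 0.79 on the log2 scale (adjusted p = 0.0154) and by 3.74 ± 0.77 (adjusted p = 0.00564), respectively. The call was lost against either set of 3 PBS libraries: the adjusted p was 0.113 and 0.153 with anti-IL-36R, and 0.0597 and 0.0827 with anti-IL-12p40, at log2 differences between 3.41 and 3.77.

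Cldn23 ran from 3.65 through 5.91 to 9.24 CPM with anti-IL-36R and from 4.95 through 7.28 to 11.1 CPM with anti-IL-12p40. Both overlapped IMQ with PBS and the water controls. Cldn23 rose by 0.97 ± 0.26 on the log2 scale (adjusted p = 0.037) and by 1.20 ± 0.26 (adjusted p = 0.007). Against replicates 1 to 3 of IMQ with PBS the values were 0.62 (adjusted p = 0.245) and 0.84 (adjusted p = 0.106). Against replicates 4 to 6 they were 1.43 (adjusted p = 0.0515) and 1.64 (adjusted p = 0.0167). The anti-IL-36R call was lost in 11 of 20 alternatives.

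Cldn8 and Cldn15 were not called with either antibody. Cldn8 differed by 0.75 ± 0.37 with anti-IL-36R (adjusted p = 0.252) and by 0.81 ± 0.37 with anti-IL-12p40 (adjusted p = 0.178). Cldn15 differed by -0.43 ± 0.31 (adjusted p = 0.448) and -0.71 ± 0.32 (adjusted p = 0.167). Cldn4, Ocln and Marveld3 were not called by edgeR either. Marveld3 stood at 0.52 ± 0.16 with anti-IL-36R (adjusted p = 0.0697), and passed the threshold by DESeq2 (adjusted p = 0.0382), by limma-voom (adjusted p = 0.0154) and without anti-IL-36R replicate 3 (adjusted p = 0.0439) or replicate 7 (adjusted p = 0.0438). It ran from 4.34 through 5.48 to 7.11 CPM with anti-IL-36R, against 2.91 through 3.92 to 4.82 CPM in IMQ with PBS, and the groups overlapped.

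**Figure D2:**
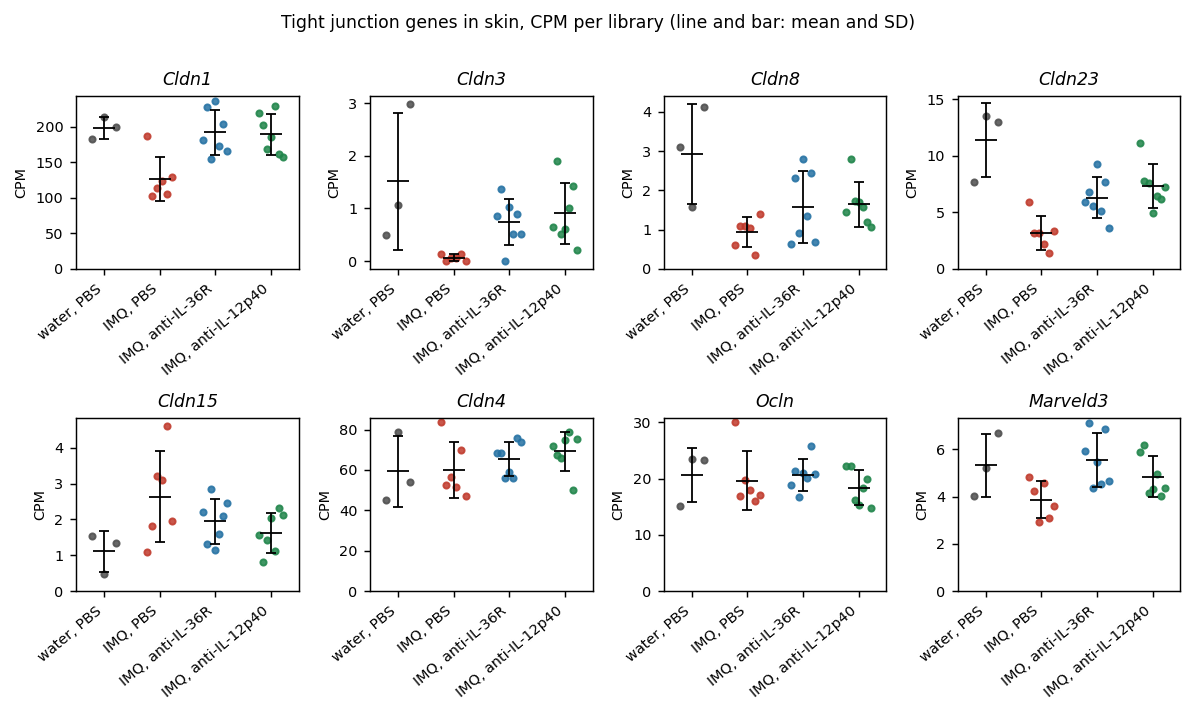
CPM in every skin library for the genes described in skin, by group, with group means and SD as bars. Points stand in replicate order, which has no meaning. Cldn1, Cldn3 and Cldn23 are low in IMQ with PBS and higher with either antibody, and IMQ with PBS replicate 1 is the highest of its group for Cldn1 and Cldn23.

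No junction gene was called between the antibodies in skin. Set against each other, 0 of the 8 were called by edgeR in either direction, with 0 at an unadjusted p under 0.05, 0 by DESeq2 and 0 by limma-voom. Over all genes 0.013% were higher and 0.0326% lower with anti-IL-36R. The log2 differences of the 8 ran from -0.30 to 0.27, with SEs between 0.13 and 0.51, so a difference of that size in the rare genes was not detectable.

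Against the water controls, skin treated with anti-IL-36R had 0 of 8 genes called by edgeR, where 5.97% of all genes were higher and 7.17% lower. At an unadjusted p under 0.05 there were 2, by DESeq2 1 and by limma-voom 0. Cldn23 was nearest the threshold, at -0.86 ± 0.29 (adjusted p = 0.0562), and passed it by DESeq2 (adjusted p = 0.0389) and without anti-IL-36R replicate 4 (adjusted p = 0.0301). Skin treated with anti-IL-12p40 also had 0 of 8 called, where 2.41% of all genes were higher and 2.39% lower, with 1 at an unadjusted p under 0.05, 0 by DESeq2 and 0 by limma-voom. Cldn23 differed there by -0.63 (adjusted p = 0.202).

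Other junction genes of skin were described by list. The shares over all genes, to set beside each list, were 15.5% higher and 17.5% lower in inflamed skin. They were 3.29% higher and 0.919% lower with anti-IL-36R, and 5.32% higher and 3.49% lower with anti-IL-12p40. Of 7 other claudins tested in inflamed skin, Cldn17 rose and Cldn10 fell, with a median log2 change of -0.13. Cldn17 lies 53848 bases from Cldn8 on chromosome 16. It ran from 0 to 0.109 CPM in the controls and from 0.819 through 1.19 to 1.82 CPM in IMQ with PBS, and rose by 4.76 ± 1.39 on the log2 scale (adjusted p = 0.0127). Cldn17 passed the filter on low counts only through its IMQ with PBS libraries, so its calls rest on the group where it was high. Without skin water control replicate 3 the value was 4.23 with no call (adjusted p = 0.0635). With anti-IL-12p40 it ran from 0 through 0.0678 to 0.283 CPM and fell by 3.68 ± 0.86 (adjusted p = 0.0114). With anti-IL-36R it had a median of 0 CPM and 1 library at 1.67 CPM, and the difference was -2.15 ± 0.73 (adjusted p = 0.0946). Between the antibodies Cldn17 was not called (1.53 ± 0.98, adjusted p = 0.9998). Cldn10 fell by 2.29 ± 0.41 in inflamed skin (adjusted p = 0.000551), from 4.11 to 7.25 CPM in the controls to 0.678 to 2.11 CPM.

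Of 11 other membrane proteins of the tight junction, 2 rose and 2 fell in inflamed skin, with a median of -0.06. These counts lie near the shares over all genes (15.5% rose and 17.5% fell). The genes that fell were Ildr1 (angulin-2) and Marveld2 (tricellulin), which sit where 3 cells meet. Ildr1 fell by 1.96 ± 0.35 (adjusted p = 0.000563) and Marveld2 by 1.03 ± 0.23 (adjusted p = 0.00224). F11r (junctional adhesion molecule A) rose by 0.67 ± 0.15 (adjusted p = 0.00229) and Crb3 by 0.62 ± 0.20 (adjusted p = 0.0219). The Crb3 call was lost without skin water control replicate 3 (adjusted p = 0.113). With anti-IL-36R 2 of the 11 rose: Ildr1 by 1.56 ± 0.30 (adjusted p = 0.00581) and Marveld2 by 0.67 ± 0.19 (adjusted p = 0.0448). With anti-IL-12p40 the same 2 rose, Ildr1 by 1.64 ± 0.30 (adjusted p = 0.00301) and Marveld2 by 0.65 ± 0.19 (adjusted p = 0.0322).

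Of 17 plaque proteins, which lie under the membrane and bind the claudins' tails, 4 rose and 5 fell in inflamed skin (median -0.03), and 3 rose and 3 fell without skin water control replicate 3. Cgn (cingulin) fell by 1.38 ± 0.24 (adjusted p = 0.000499) and Cgnl1 by 0.73 ± 0.17 (adjusted p = 0.00304), while the polarity genes Prkcz and Pard6b rose by 0.76 ± 0.14 (adjusted p = 0.000576) and 0.95 ± 0.20 (adjusted p = 0.00143). Cgn rose by 0.77 ± 0.20 with anti-IL-36R (adjusted p = 0.032) and by 0.93 ± 0.20 with anti-IL-12p40 (adjusted p = 0.007). It was the only plaque gene of the 17 to rise with each antibody, and 2 rose with each without IMQ with PBS replicate 1. Pard6b and Prkcz fell with anti-IL-12p40.

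Of 19 claudin partners and regulators, 3 rose and 3 fell in inflamed skin (median 0.11), and 1 rose and 2 fell without skin water control replicate 3. The counts with all libraries lie near the shares over all genes (15.5% rose and 17.5% fell). Epcam, which binds and stabilises claudins, fell by 0.80 ± 0.22 (adjusted p = 0.00843). It stood at 135 to 207 CPM in the controls, 68.9 to 156 CPM in IMQ with PBS, 113 to 193 CPM with anti-IL-36R and 111 to 183 CPM with anti-IL-12p40. Of 18 adherens junction and desmosome genes, 8 rose and 1 fell in inflamed skin (median 0.35), led by Dsg3 at 1.52 ± 0.25 (adjusted p = 0.000284). Without skin water control replicate 3, 3 of the 18 rose and 1 fell. With anti-IL-36R 1 of the 18 fell, Dsc2 by 1.62 ± 0.36 (adjusted p = 0.0133).

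Of 9 cytokines tested that are known to act on tight junctions, 5 rose in inflamed skin (median 1.66), among them Il1b by 3.94 ± 0.78 (adjusted p = 0.0011) and Il17f by 3.45 ± 0.65 (adjusted p = 0.000836). Without skin water control replicate 3, 3 of the 9 rose. With anti-IL-12p40 4 of the 9 fell, among them Il17f by 3.25 ± 0.45 (adjusted p = 0.000573). Il17f ran from 0.338 to 0.490 CPM in the water controls and passed the filter on low counts only through IMQ libraries. Its calls here thus rest on groups where it was high. With anti-IL-36R 0 of the 9 were called by edgeR (median -0.42).

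In colon, DSS with PBS was compared with the water controls. Of the 10 genes, Ocln and Marveld3 fell and 0 rose. Over all 15731 genes tested, 14.7% fell and 17.6% rose. The median log2 change of the 10 was -0.55, against -0.03 over all genes. Without DSS with PBS replicate 6, the library high in keratinocyte genes, the same count of 2 fell, the median was -0.37, and 10.3% of all genes fell and 15.1% rose. Replicate 5 of that group stayed in this run. It was next lowest in the summed level of the 10 genes, at 672 CPM against 439 CPM in replicate 6. With replicate 5 alone left out, 2 of the 10 were called, and no run left out both. Without colon water control replicate 4, 3 fell, the third being Cldn8.

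Ocln (occludin) stood at 152, 145, 139, 103 and 98.9 CPM in the controls. In DSS with PBS it ran from 28.0 CPM in replicate 6 through a median of 71.0 to 90.9 CPM. No DSS library reached the lowest control. Ocln fell by 1.02 ± 0.20 on the log2 scale (adjusted p = 0.000499), and by 0.85 without replicate 6 (adjusted p = 0.00047).

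Marveld3 stood at 61.8, 68.0, 75.1, 50.5 and 68.5 CPM in the controls and from 18.2 CPM in replicate 6 through 47.2 to 54.5 CPM in DSS with PBS. The groups overlapped through control replicate 4. Marveld3 fell by 0.60 ± 0.18 on the log2 scale (adjusted p = 0.0153). It fell by 0.43 without DSS with PBS replicate 6 (adjusted p = 0.0168). In a fit of the compared groups only, the value was -0.59 with no call (adjusted p = 0.103).

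Cldn8 stood at 223, 234, 187, 60.9 and 155 CPM in the controls and from 43.7 through 104 to 147 CPM in DSS with PBS. Control replicate 4, the library high in goblet cell genes, lay among the DSS libraries. The log2 difference was -0.76 ± 0.30 (adjusted p = 0.0526), past the threshold by DESeq2, by limma-voom, without control replicate 4 (-0.98, adjusted p = 0.00755) and without DSS with PBS replicate 1 or 2, and -0.59 (adjusted p = 0.126) without DSS with PBS replicate 6.

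The pore-forming claudins were not called. Cldn2 stood at 173, 179, 170.3, 203.7 and 174 CPM in the controls and from 28.4 through 109.9 to 179 CPM in DSS with PBS, a wide spread that overlapped the controls (log2 difference -0.68 ± 0.43, adjusted p = 0.23). Cldn15 stood at 31.4, 29.4, 27.6, 186 and 57.7 CPM in the controls, where replicate 4 was far above the rest. It ran from 10.8 through 35.3 to 81.9 CPM in DSS with PBS (-0.73 ± 0.57, adjusted p = 0.347).

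The remaining claudins were not called either. Cldn7 stood at 426, 422, 429, 457 and 517 CPM in the controls and from 157 through 406 to 561 CPM in DSS with PBS (-0.23 ± 0.20, adjusted p = 0.392). Cldn3 stood at 146, 199, 238, 252 and 217 CPM in the controls and from 35.9 through 129 to 256 CPM in DSS with PBS (-0.51 ± 0.31, adjusted p = 0.222). Cldn4 ran from 14.1 to 44.6 CPM in the controls and from 29.1 to 93.6 CPM in DSS with PBS (0.77 ± 0.35, adjusted p = 0.0945), and Cldn4 passed the threshold without DSS with PBS replicate 1 (0.92, adjusted p = 0.0464). Cldn1 (0.78 ± 0.60, adjusted p = 0.339) and Cldn23 (-0.49 ± 0.27, adjusted p = 0.169) overlapped between the groups as well.

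Markers of other cells also differed between the colon groups. The 10 leukocyte genes summed to 95.5 to 206 CPM in the colon controls, 663 to 3351 CPM in DSS with PBS, 257 to 652 CPM with anti-IL-36R and 389 to 895 CPM with anti-IL-12p40, and 10 of 10 rose with DSS. Of 7 surface colonocyte genes tested, 4 fell with DSS, and the summed level of that list was 2711 to 5250 CPM in the controls, 158 to 1891 CPM in DSS with PBS, 1476 to 5420 CPM with anti-IL-36R and 930.5 to 2842 CPM with anti-IL-12p40. Simple epithelium genes summed to 10697 to 13453 CPM in the controls, 2981 to 11988 CPM in DSS with PBS, 8645 to 13640 CPM with anti-IL-36R and 8960 to 11580 CPM with anti-IL-12p40. Of 4 basal keratinocyte genes tested, 3 rose with DSS, and 2 of 4 rose without replicate 6. Krt5 of this list ran from 0.187 to 0.566 CPM in the water controls and passed the filter on low counts only through DSS libraries. These counts thus rest in part on groups where the genes were high. The part of these cells in the fall of Ocln and Marveld3, or in the rise of Marveld3 with anti-IL-36R described next, was not tested.

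**Figure D3:**
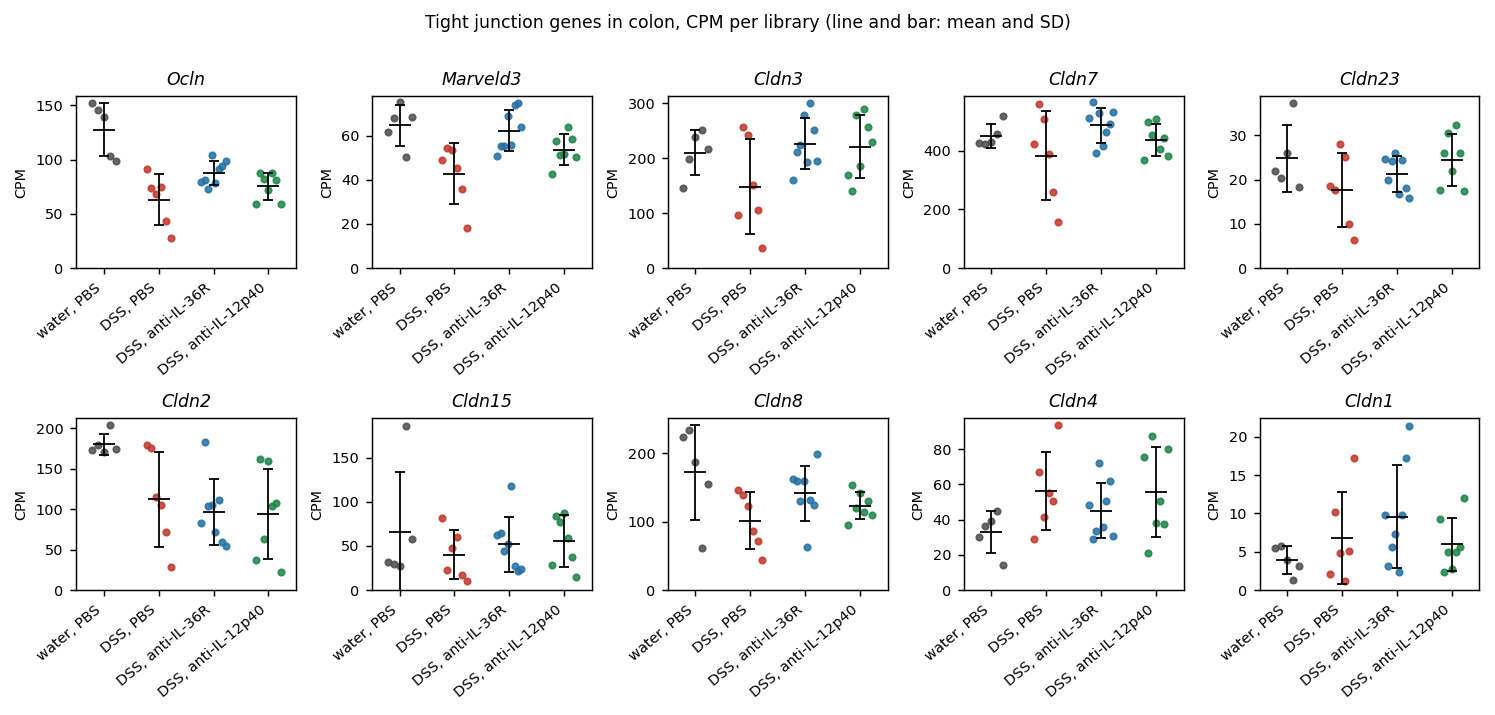
CPM in every colon library for the genes described in colon, by group, with group means and SD as bars. Points stand in replicate order, which has no meaning, and the SD bar of Cldn15 in the water controls is ended at 0. All 6 DSS with PBS libraries lie below the controls for Ocln, and replicate 6 of that group is the lowest for 8 of the 10 genes.

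The antibodies were compared with DSS and PBS, again with shared PBS libraries. With anti-IL-36R Marveld3 was the only one of the 10 to rise, and 0 fell, while 1.16% of all genes rose and 5.45% fell. It ran from 50.8 through 59.9 to 74.7 CPM and rose by 0.54 ± 0.17 on the log2 scale (adjusted p = 0.0492). The call was lost in 10 of 19 alternatives: without DSS with PBS replicate 6 the value was 0.37 (adjusted p = 0.103). Ocln ran from 73.3 through 86.3 to 104 CPM with anti-IL-36R (0.47 ± 0.18, adjusted p = 0.12). With anti-IL-12p40 0 of the 10 were called by edgeR, with 0 at an unadjusted p under 0.05, 0 by DESeq2 and 0 by limma-voom, while 0.0191% of all genes rose and 1.13% fell. Ocln ran there from 58.8 through 81.0 to 87.6 CPM (0.26 ± 0.19, adjusted p = 0.61), and Marveld3 differed by 0.33 ± 0.17 (adjusted p = 0.445).

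Claudins of the colon were not called with either antibody. Cldn3 ran from 159.9 through 217 to 299.9 CPM with anti-IL-36R and from 141 through 229 to 289 CPM with anti-IL-12p40, and both ranges covered most of the water controls. Cldn8 ran from 62.5 through 146 to 199 CPM and from 94.6 through 120.0 to 153 CPM. For Cldn2 the ranges were 54.6 through 93.5 to 184 CPM and 22.8 through 105 to 162 CPM, with medians below the lowest water control of 170.3 CPM. Against water Cldn2 differed by -0.90 with anti-IL-36R (adjusted p = 0.156) and by -0.94 with anti-IL-12p40 (adjusted p = 0.116), so these were not called.

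Between the antibodies in colon, 0 of the 10 were called by edgeR, with 0 at an unadjusted p under 0.05, 0 by DESeq2 and 0 by limma-voom, and 0% of all genes were higher and 0% lower. The log2 differences of the 10 ran from -0.30 to 0.67, with SEs between 0.16 and 0.50.

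Ocln was below the water controls under anti-IL-12p40. Its log2 difference was -0.76 ± 0.19 (adjusted p = 0.00814), a call kept in 17 of 17 alternatives, and it was the only one of the 10 called lower, with 0 higher. Over all genes 6.4% were lower and 10.8% higher. With anti-IL-36R 0 of the 10 were called by edgeR against the controls, where 3.01% of all genes were lower and 6.92% higher. At an unadjusted p under 0.05 there were 3, by DESeq2 1 and by limma-voom 3. Ocln differed there by -0.54 ± 0.19 (adjusted p = 0.0681), and passed the threshold by DESeq2, by limma-voom and with the compared groups only (adjusted p = 0.00819). The difference between the antibodies in Ocln was not past the threshold, as given above for all 10.

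**Figure D4:**
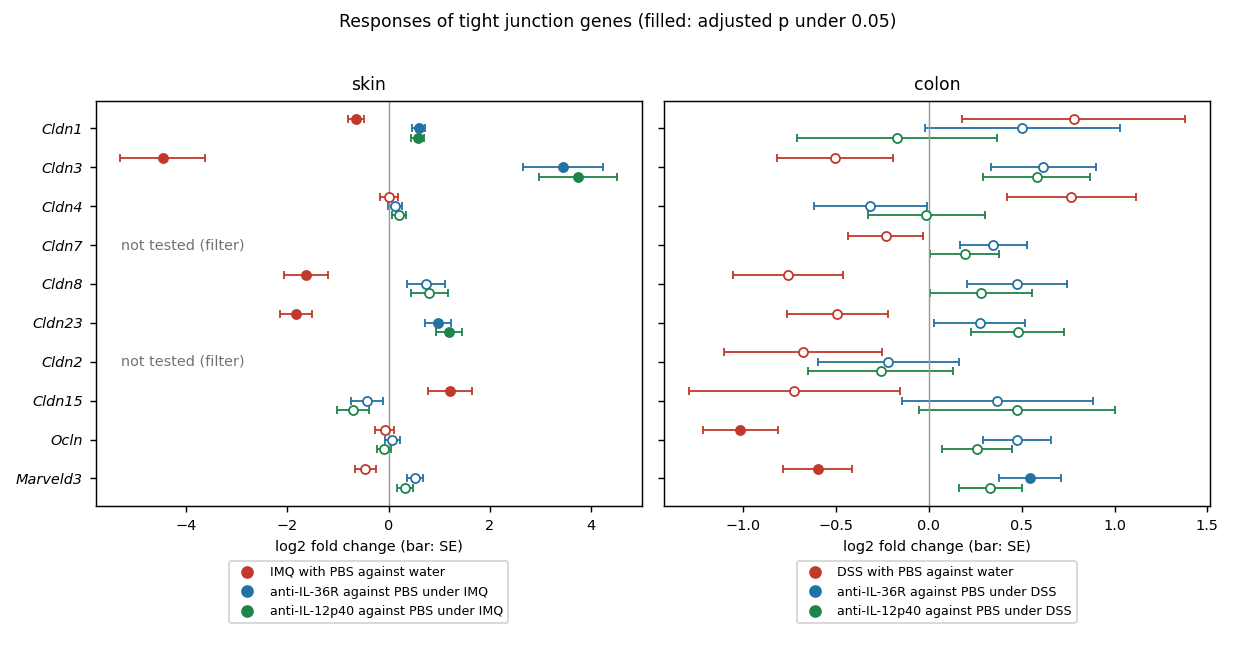
Log2 fold change with its SE for each gene in the comparisons of inflammation with water and of each antibody with PBS, skin and colon in separate panels with different horizontal scales. Filled points have an adjusted p under 0.05, and Cldn2 and Cldn7 were not tested in skin. Skin shows Cldn1, Cldn3 and Cldn23 lower with IMQ and higher with either antibody, and colon shows Ocln and Marveld3 lower with DSS and Marveld3 higher with anti-IL-36R.

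The response to inflammation was set against itself across tissues in a fit of all 49 libraries. The difference of the 2 responses, colon minus skin, was past the threshold for 3 of the 10 genes, 2 higher and 1 lower, where 13.4% of all genes were higher and 8.95% lower. Of the 10, Cldn2 and Cldn7 entered this fit only through colon. Their skin counts were too low to measure a skin response, and neither was called (SEs of 1.94 and 0.95). Cldn3 differed by 3.94 ± 0.97 (adjusted p = 0.00265), lost without skin water control replicate 3 (adjusted p = 0.0671). Cldn23 differed by 1.30 ± 0.43 (adjusted p = 0.0247), and Ocln by -0.98 ± 0.30 (adjusted p = 0.015). The log2 changes of Cldn3 and Cldn23 were thus lower in skin than in colon, and that of Ocln lower in colon. The Cldn23 call was lost in 4 of 25 alternatives: the compared groups only (adjusted p = 0.113), and without skin water control replicate 2 (1.16, adjusted p = 0.0697), skin water control replicate 3 (1.19, adjusted p = 0.0795) or DSS with PBS replicate 3 (1.12, adjusted p = 0.0515). The Ocln call was lost in 2 of 25, the compared groups only (adjusted p = 0.0939) and without skin water control replicate 1 (-0.80, adjusted p = 0.0809). The agents differ as well as the tissues, and the 2 cannot be told apart.

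Differences between the tissues in the responses to the antibodies were not called. Cldn2 and Cldn7 are again among the 10 only through colon, and their skin response could not be measured. For anti-IL-36R 0 of the 10 were called by edgeR, where 1.01% of all genes were higher and 4.13% lower, with 1 at an unadjusted p under 0.05, 1 by DESeq2 and 1 by limma-voom. For anti-IL-12p40 0 of the 10 were called, where 0.398% of all genes were higher and 1.47% lower, with 1 at an unadjusted p under 0.05, 1 by DESeq2 and 0 by limma-voom. Cldn3 was nearest in each, at -2.82 (adjusted p = 0.072) and -3.17 (adjusted p = 0.0588). Without DSS with PBS replicate 6 Cldn3 passed the threshold in both, at -3.03 (adjusted p = 0.0473) and -3.38 (adjusted p = 0.0308). It also passed without the skin library of anti-IL-36R replicate 3 (adjusted p = 0.0326) in the first, and without skin anti-IL-12p40 replicate 7 (adjusted p = 0.0375) or DSS with PBS replicate 1 (adjusted p = 0.0429) in the second.

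Among other junction genes of colon, 9 of 17 plaque proteins fell with DSS and 0 rose, with a median log2 change of -0.31. Without DSS with PBS replicate 6, 6 of 17 fell (median -0.26). The shares over all genes, to set beside each colon list, were 14.7% lower and 17.6% higher with DSS. Without replicate 6 they were 10.3% and 15.1%. They were 5.45% lower and 1.16% higher with anti-IL-36R, and 1.13% lower and 0.0191% higher with anti-IL-12p40. Pard3, a polarity scaffold, fell by 0.44 ± 0.10 (adjusted p = 0.00134), Magi1 by 0.50 ± 0.12 (adjusted p = 0.00239) and Prkcz by 0.92 ± 0.24 (adjusted p = 0.00461). Of 12 other membrane proteins, Cxadr fell by 0.72 ± 0.21 (adjusted p = 0.0119), F11r by 0.37 ± 0.12 (adjusted p = 0.0186), and Esam, a molecule of endothelial junctions, rose by 0.75 ± 0.22 (adjusted p = 0.0119). The F11r call was lost without DSS with PBS replicate 6 (adjusted p = 0.0544). Of 6 other claudins, Cldn12 fell with a call that was also lost without that library (adjusted p = 0.108). Cldn10 was at 11.3 CPM in DSS with PBS replicate 2 and at 0.592 to 0.902 CPM in the other 5, against 0.160 to 0.676 CPM in the controls. Its log2 difference was 2.33 ± 0.68 (adjusted p = 0.0117), and 0.55 with no call without replicate 2 (adjusted p = 0.24).

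Of 21 claudin partners and regulators, 5 rose and 8 fell with DSS (median -0.33), and 4 rose and 4 fell without replicate 6. Without colon water control replicate 4, 5 rose and 4 fell. Over all genes 17.6% rose and 14.7% fell, or 15.1% and 10.3% without replicate 6. Without control replicate 4 the shares were 18% and 14.2%. Snai2, a repressor of epithelial genes, rose by 1.63 ± 0.34 (adjusted p = 0.000691) and Snai1 by 2.02 ± 0.44 (adjusted p = 0.0013).

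Of 14 sodium and chloride transport partners, 5 fell with DSS, also without replicate 6 (median -0.76). They include the mineralocorticoid receptor gene Nr3c2, which fell by 0.95 ± 0.24 (adjusted p = 0.00383), and Cftr, a chloride channel, which fell by 1.20 ± 0.33 (adjusted p = 0.00713). All 10 cytokines tested rose with DSS (median 4.32), and 9 of 9 rose without replicate 6. Il6 ran from 0 to 0.113 CPM in the water controls and passed the filter on low counts only through DSS libraries. The counts of this list in each comparison thus rest in part on groups where its genes were high. Il1b rose by 8.31 ± 1.005 (adjusted p = 2.01e-06). With anti-IL-36R 6 of the 10 fell, led by Il6 at -4.51 ± 0.63 (adjusted p = 0.000254) and Il1b at -4.10 ± 0.65 (adjusted p = 0.000423). With anti-IL-12p40 2 of the 10 fell, Il6 at -3.32 ± 0.62 (adjusted p = 0.014) and Il1b at -2.80 ± 0.64 (adjusted p = 0.0345). Without replicate 6 these counts were 4 of 9 and 1 of 9, and the Il1b call with anti-IL-12p40 was lost (adjusted p = 0.116). The tight junction plaque list had 2 of 17 higher with anti-IL-36R, Mpp5 and Magi1 (Mpp5 alone without DSS with PBS replicate 6), and 0 of 17 called by edgeR with anti-IL-12p40.

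The genes whose pattern was most like each member were found by Pearson correlation of log2 CPM over the libraries of a tissue, which include all its groups and share depth and tissue makeup. They are given as a description. In skin, over 23 libraries and 13099 genes, Cldn1 was most like Epcam (r = 0.961), Kdsr (r = 0.939) and Scel (r = 0.937). Cldn23 was most like Srcin1 (r = 0.952), Fcho1 (r = 0.948) and Susd2 (r = 0.945). In colon, over 26 libraries and 13487 genes, Cldn7 was most like Epcam (r = 0.964), and Cldn3 was most like Tjp3, the scaffold ZO-3 (r = 0.970). Ocln was most like Cmtm4 and Ipmk (r = 0.949 each) and Marveld3 most like Casz1 (r = 0.948). Cldn2 was most like Kcnq1 (r = 0.918), a potassium channel, and Cldn15 most like Elapor1 (r = 0.934) and, among its first 3, Agr2 (r = 0.920), a goblet cell gene. Cldn8 was most like Rdh16 (r = 0.901).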

How the data were processed

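Expected counts per gene were deposited by the authors as one table per tissue, made with RSEM against mm10 per the submitters' processing notes. Versions, annotation and filters are not given in the sources used here. Libraries were strand-specific, per the labels' protocols. The expected counts were rounded to whole numbers (16.9% of the deposited values were not whole in skin and 17.5% in colon).

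Genes were filtered with filterByExpr, scaled by TMM and tested with edgeR 4.0.16 (R 4.3.3), by the quasi-likelihood test with Benjamini-Hochberg adjustment over all genes tested and a threshold of 0.05. The 4 groups of a tissue shared one fit. Comparisons between tissues used one fit of all 8 groups over 16818 genes. SEs are the log2 fold change divided by the square root of the F statistic. The script was tested on simulated data. CPM values are scaled to TMM-adjusted totals. Levels per kilobase use merged GENCODE M21 exons. Replicate numbers follow accession order and pair nothing. The 134 pairs of libraries within a group differed beyond sampling noise (lowest mean chi-square per gene 11.2). No library was therefore treated as a copy of another, and all were counted. This check cannot show whether each came from its own animal.

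The members and gene lists were chosen with earlier results of these data known. The text names the 10 members, at most 6 genes per list and comparison by lowest adjusted p, and up to 3 genes most like a member among those with a mean log2 CPM of at least 1. Of the listed symbols, 4 had no match. Alternatives were DESeq2 size factors, no filter, DESeq2 1.42.0, limma-voom with sample weights (limma 3.58.1), compared groups only, each library left out, and replicates 1 to 3 or 4 to 6 of IMQ with PBS. List counts without 4 single libraries that stood apart and the Cldn10 value without each DSS with PBS library were added after seeing the data. Depths of 14723200 to 19678100 counts per library limit precision most for Cldn3, Cldn8 and Cldn15 in skin. Sequences came from RefSeq (GRCm38.p6). Figures used matplotlib 3.10.9.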

Additional observations from a re-analysis of the deposited data

Results flagged for a closer look

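In 64 combinations of a gene and a group of 4 or more libraries, 5 held 1 library far from the others by Dixon's test, and chance marks about 1 in 20. Ocln stood at 30.0 CPM in IMQ with PBS replicate 1, where the next library was at 19.7 CPM. Cldn3 was at 0 CPM in skin replicate 3 of IMQ with anti-IL-36R, where the next library was at 0.511 CPM. Cldn4 stood at 49.97 CPM in skin replicate 6 of IMQ with anti-IL-12p40, where the next was at 66.0 CPM. Cldn2 stood at 203.7 CPM in colon water control replicate 4, where the next was at 179 CPM. Cldn8 stood at 62.5 CPM in colon replicate 5 of DSS with anti-IL-36R, where the next was at 124.4 CPM.

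The response to inflammation differed between tissues by the interaction term for 3 genes. Colon minus skin, the log2 difference of the responses was 3.94 for Cldn3, 1.30 for Cldn23 and -0.98 for Ocln.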

How the results depend on the processing

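No log2 fold change reversed direction among the 973 recomputed values. These hold fold changes only for genes called or near the threshold, and also counts of genes called, which have no direction to reverse. Counts of junction genes called are given here where they moved by more than 1.5 times. In skin, IMQ against water gave 5 and became 3 with the compared groups only and with replicates 1 to 3 of IMQ with PBS, and 3 to 6 leaving out each library in turn. Anti-IL-36R against PBS gave 3 in skin and became 1 with the compared groups only, 0 with replicates 1 to 3, 1 with replicates 4 to 6, and 2 to 4 leaving out each library. Anti-IL-12p40 gave 3 and became 0 with replicates 1 to 3. Anti-IL-36R against water in skin gave 0, 1 by DESeq2, and 0 to 1 leaving out each library. In colon, DSS against water gave 2, 1 with the compared groups only, and 2 to 4 leaving out each library. Anti-IL-36R against PBS in colon gave 1, 0 without the filter or with the compared groups only, and 0 to 2 leaving out each library. Anti-IL-36R against water in colon gave 0, 1 by DESeq2, 3 by limma-voom and 2 with the compared groups only, and anti-IL-12p40 against water gave 1, and 3 by limma-voom. Between tissues, the response to inflammation gave 3, 1 with the compared groups only, and 1 to 4 leaving out each library. The response to anti-IL-36R gave 0, 1 by DESeq2, 1 by limma-voom, and 0 to 1 leaving out each library, and that to anti-IL-12p40 gave 0, 1 by DESeq2 and 0 to 1. The cause of these changes was not tested. No paired analysis was possible because the labels share no replicate numbers between groups. Low counts limit Cldn3, Cldn8 and Cldn15 in skin.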
